A study of Mus musculus with 12 samples.

Results

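The genes described here are 27 genes of cholesterol synthesis and of the SREBP pathway in the mouse, taken by name in lists of ChIP-seq peaks for RXR and for histone H3 acetylated at lysine 27 (H3K27ac). A gene counted in a list when at least 1 peak carried its name as nearest gene and lay within 100 kb of its transcription start site (TSS). Of the 27 genes, 24 were named in at least 1 of the 12 lists, out of 14490 genes named in all. Mvk, Npc2 and Scap were not named in any list and are outside the shares below, which are out of 24 for the pathway genes and out of 14490 for all genes.

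RXR (retinoid X receptor) pairs on DNA with other nuclear receptors, among them the liver X receptor (LXR) and the receptor for retinoic acid. Cholesterol is built from acetyl-CoA through mevalonate and then through a series of sterols, and the transcription factor SREBP2, made from Srebf2, turns on the genes of this route. When sterols are scarce the escort protein SCAP carries SREBP2 to the Golgi, where proteases release it, and when sterols are plentiful the INSIG proteins hold it back. LXR responds to the opposite state, a surplus of sterols, and with RXR as its partner drives sterol export and fatty acid synthesis.

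The libraries came from wild-type E14 mouse embryonic stem (ES) cells, grown without feeder cells and with leukaemia inhibitory factor, and from cells derived from them. In ES cells each of 4 conditions had 1 RXR library and 1 H3K27ac library. These were a control, for which the protocol names dimethylsulfoxide as the vehicle, and 24 h at 1 µM of the LXR agonist GW3965, the RXR agonist LG268 or all-trans retinoic acid (RA). RXR alone was also mapped on day 8 and day 16 of neural differentiation through embryoid bodies, in which RA was added at 5 µM, with 2 libraries a day. Whether those 2 are separate cultures is not stated, and their spread may be technical.

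The RXR lists of ES cells held 1089 peaks in the control, 940 with GW3965, 2089 with LG268 and 1970 with RA. Those of day 8 held 1154 and 2044 peaks and those of day 16 held 429 and 409. The H3K27ac lists held 21418, 17759, 12472 and 14958 peaks in the control and with GW3965, LG268 and RA. Read totals are not in the lists and the depth of a library is unknown. With 1 library per ES condition a treatment and a difference in depth or in list length cannot be told apart. No test between treatments was therefore made. Of 10 ES cell marker genes, 7 had an H3K27ac peak within 100 kb in the control list, Pou5f1 and Sox2 at the promoter among them, and Prdm14, Tdgf1 and Zfp42 had none. The count was 7 with GW3965, 3 with LG268 and 4 with RA, and Pou5f1 had no peak in the last 2 lists. Promoter peaks were also called in the control at the neural progenitor genes Nes and Pax6 and at 2 of 4 neuron genes, and at 0 of 4 endoderm and 0 of 4 mesoderm genes. The part of these marker differences in the counts below was not tested. The differentiated cells have no H3K27ac list, so their cell type could not be checked in this way.

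By the name given to each peak, 3 of the 24 genes had an RXR peak within 100 kb in at least 1 of the 8 RXR lists, Cyp51, Insig1 and Npc1 (12.5%), against 3193 of all 14490 genes (22.0%). Counted instead by position, whatever name the peak carried, the pathway share (3 to 6 of 22 genes) was above that of 27025 genes in 7 of the 8 lists. It was 13.6% against 13.3% in the control, 13.6% against 10.7% with GW3965, 27.3% against 22.3% with LG268 and 18.2% against 21.1% with RA. On day 8 it was 18.2% against 9.49% and 22.7% against 18.2%, and on day 16 18.2% against 3.43% and 13.6% against 2.87%. The 27025 include genes named in no list. By name, Cyp51, Insig1 and Npc1 also had an RXR peak in the 4 ES lists alone (12.5%, against 18.4% of all genes). Within 1 kb of the TSS, called the promoter here, Npc1 was the only one (4.17%, against 6.62%). The other 21 genes, which include every mevalonate enzyme named in the lists and Srebf2 itself, had no RXR peak of their own name within 100 kb in any list.

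List by list the count was 1 or 2 genes. Cyp51 was the only pathway gene with an RXR peak in the control (4.17% of the pathway genes, against 5.94% of all genes). With GW3965 it was Insig1 (4.17% against 5.05%), and with RA Cyp51 (4.17% against 10.3%). LG268 gave 2 genes, Cyp51 and Npc1 (8.33% against 10.9%). On day 8, Cyp51 had a peak in replicate 1 (4.17% against 4.64%) and Cyp51 and Npc1 in replicate 2 (8.33% against 8.84%). On day 16, Cyp51 was alone in both replicates, at 4.17% against 1.59% and 1.46% of all genes. In the ES and day 8 lists the pathway share was thus near or below the share of all genes, and on day 16 the higher share stands for 1 gene.

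**Figure D1:**
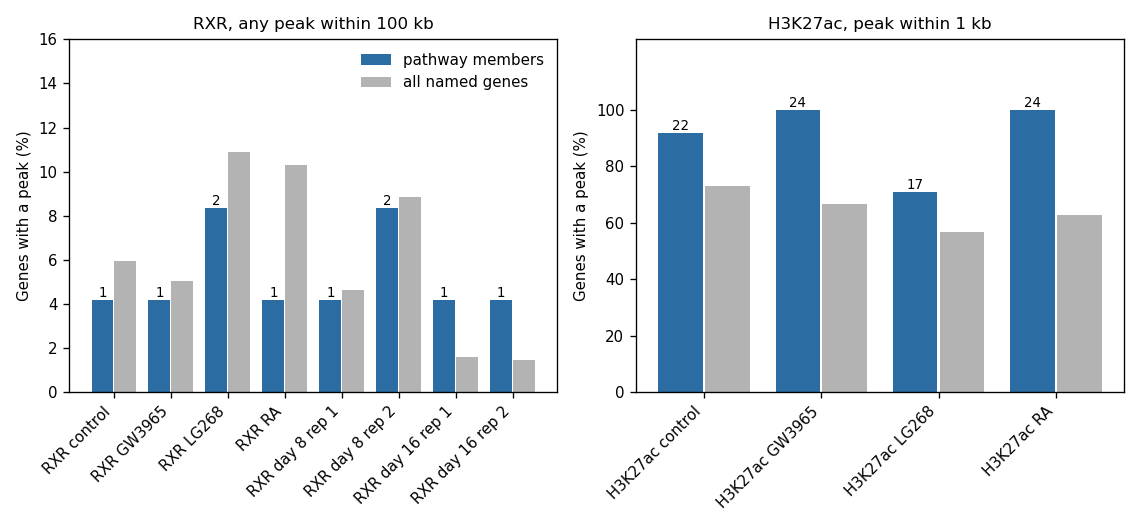
Share of genes with a peak in each list, for the 24 cholesterol pathway genes (blue, with their number above the bar) and for all 14490 genes named in the lists (grey). The left panel counts RXR peaks within 100 kb of the TSS and the right panel H3K27ac peaks within 1 kb. The blue RXR bars stand for 1 or 2 genes, and the blue H3K27ac bars for 17 to 24.

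The promoter and distal counts separate as follows. Promoter RXR peaks were called at 0 pathway genes in the control, with GW3965 and with RA, where 1.98%, 0.669% and 3.61% of all genes had one. They were called at 1 gene, Npc1, with LG268 (4.17% against 4.03% of all genes) and in day 8 replicate 2 (4.17% against 2.30%), and at 0 genes in day 8 replicate 1 and in both day 16 lists (0.801%, 0.228% and 0.124% of all genes). A distal RXR peak, more than 1 kb and up to 100 kb from the TSS, was called at 1 pathway gene in each of the 8 lists. The share of all genes with a distal peak was 4.02% in the control, 4.42% with GW3965, 7.16% with LG268, 6.96% with RA, 3.91% and 6.78% on day 8, and 1.37% and 1.35% on day 16.

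Between the days, the number of pathway genes with an RXR peak was 1.5 ± 0.707 on day 8 and 1.0 ± 0 on day 16 (SD, n = 2). The difference of 0.5 genes came from 1 gene, Npc1, called in day 8 replicate 2 alone (exact permutation test, two-sided, p = 1.00). Every split of these counts into 2 against 2 gives the same absolute difference, so the test could give no other p and decides nothing. The smallest p that 2 libraries against 2 can allow, 0.333, was out of reach of these counts.

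Cyp51 encodes lanosterol 14-alpha-demethylase, an early enzyme of the sterol part of the pathway, and its RXR peaks lay in 1 cluster. The 24 peaks of 7 lists fell in a region of 2142 bp on chromosome 5 (mm10, 4052319 to 4054460), between 50344 and 51956 bp downstream of the Cyp51 TSS. By the deposited annotation the region is in intron 33 of 47 of an overlapping transcript, which the RefSeq gene table assigns to Akap9, a gene for a scaffold protein of the Golgi and centrosome. None of the 24 peaks was annotated as a simple repeat, satellite, low-complexity or rRNA sequence. Repeat here means these classes and the mitochondrial genome, and transposons such as LINE, SINE and LTR elements were not counted.

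The region held 2 RXR peaks in the control, 0 with GW3965, 3 with LG268, 4 with RA, 4 and 2 on day 8 (replicates 1 and 2), and 4 and 5 on day 16. The score that the authors deposited for a peak is on a scale not stated between libraries, so it is read within a list, with rank 1 for the highest score. In the control the higher of the 2 peaks had a score of 5.71 and rank 775 of 1089. With LG268 the highest peak had a score of 12.12 and rank 432 of 2089, and with RA 7.07 and rank 1022 of 1970. The region stood low in the control list and nearer the top of the LG268 list, at 71.2% and 20.7% of the list length counted from the highest score, with RA at 51.9%.

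In the differentiated cells the best score in the region was 27.06 (rank 204 of 1154) and 34.63 (rank 253 of 2044) on day 8, and 22.38 (rank 179 of 429) and 17.67 (rank 180 of 409) on day 16. These ranks are 17.7% and 12.4% of the list on day 8 and 41.7% and 44.0% on day 16. The lists differ in length between the days and the ranks themselves are close, so no difference between the days is read from them.

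The peaks inside the region recurred at the same places. Day 16 replicate 2 resolved 5 of them, with widths of 97 to 177 bp. From the left of the plot, the first was overlapped by peaks of 6 RXR lists, the second by 3, the next 2 by 7 each and the last by 5, that replicate included. In day 8 replicate 2 a single peak of 1657 bp covered the first 4 places. H3K27ac peaks overlapped the same places in 3, 3, 3, 2 and 1 of the 4 ES lists.

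**Figure D2:**
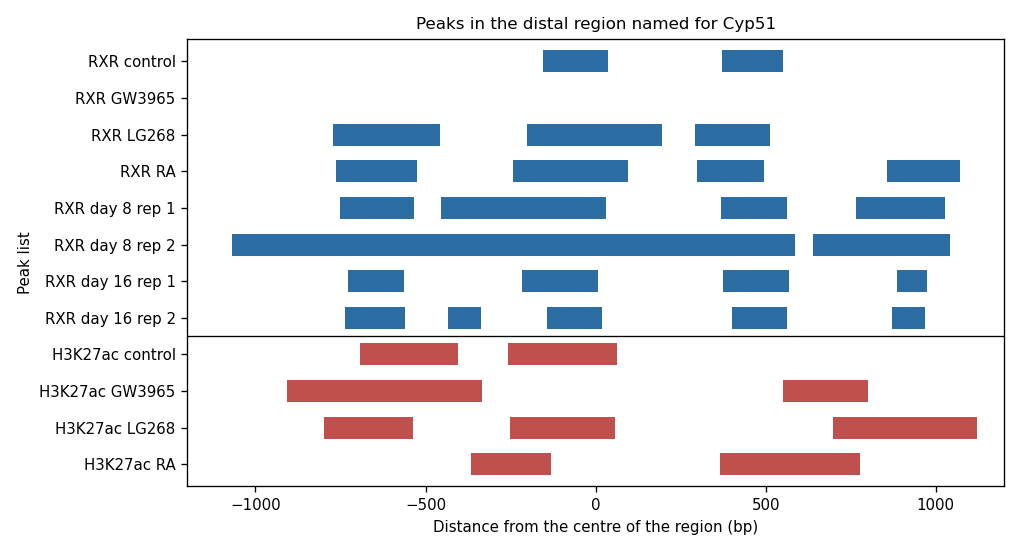
Peaks in the distal region named for Cyp51, drawn to scale as bars along the distance in bp from the centre of the region, with 1 row for each list (RXR blue, H3K27ac red). RXR peaks recur at up to 5 places in 7 lists and the GW3965 row is empty, while each of the 4 H3K27ac lists has 2 or 3 peaks.

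H3K27ac was called in this region in all 4 ES lists. The best score was 10.51 in the control (39.3% of the list), 5.16 with GW3965 (74.8%), 6.71 with LG268 (55.1%) and 3.48 with RA (93.8%). The GW3965 list thus had 2 H3K27ac peaks there and no RXR peak.

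Peaks of the 8 RXR lists merged into 4818 regions. A peak in all lists except GW3965 was found in 63 of these, 13 without a repeat peak. A peak in all 8 lists was found in 109 regions, 25 of them outside repeats. Regions with at least 2 peaks in each of the 7 lists other than GW3965 numbered 3, and the Cyp51 region was the 1 without a repeat or mitochondrial peak. This description was made after the values were seen.

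Insig1, whose product holds the SREBP and SCAP complex in the endoplasmic reticulum, had an RXR peak in the GW3965 list and in no other. It lay in intergenic sequence 33996 bp upstream of the TSS (chromosome 5, 28037239 to 28037593, mm10), with a score of 7.19 and rank 385 of 940 (41.0% of the list). No H3K27ac peak of the 4 ES lists overlapped it.

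Npc1, whose product exports cholesterol from lysosomes, had the pathway's promoter RXR peaks. With LG268 the peak lay 109 bp upstream of the TSS (chromosome 18, 12236399 to 12236592), with a score of 6.44 and rank 1115 of 2089 (53.4% of the list). In day 8 replicate 2 it lay 148 bp upstream (12236411 to 12236657), with a score of 11.1 and rank 904 of 2044 (44.2%). Both stood near the middle of their lists, the 2 peaks overlapped, and neither the control nor day 8 replicate 1 had a peak there. The LG268 peak shared 1 base with an H3K27ac peak of the GW3965 list (12236135 to 12236399), and the day 8 peak overlapped one of the RA list (12236632 to 12237067). Neither overlapped a peak of another H3K27ac list. Dhcr7, the gene of the last enzyme of the pathway, had an LG268 RXR peak 155847 bp from its TSS, outside the window (score 4.79, rank 1610 of 2089).

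Of the RXR peaks at pathway genes, some overlapped an H3K27ac peak of the same treatment by at least 1 bp. They were 1 of 2 in the control, 0 of 1 with GW3965, 2 of 4 with LG268 and 2 of 4 with RA. Over all RXR peaks of these lists the share was 32.0% (29.2 to 34.8), 18.2% (15.8 to 20.8), 24.5% (22.6 to 26.4) and 27.8% (25.8 to 29.8), with exact 95% binomial intervals that cover counting error only. The overlapping peaks at pathway genes were all in the Cyp51 region.

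**Figure D3:**
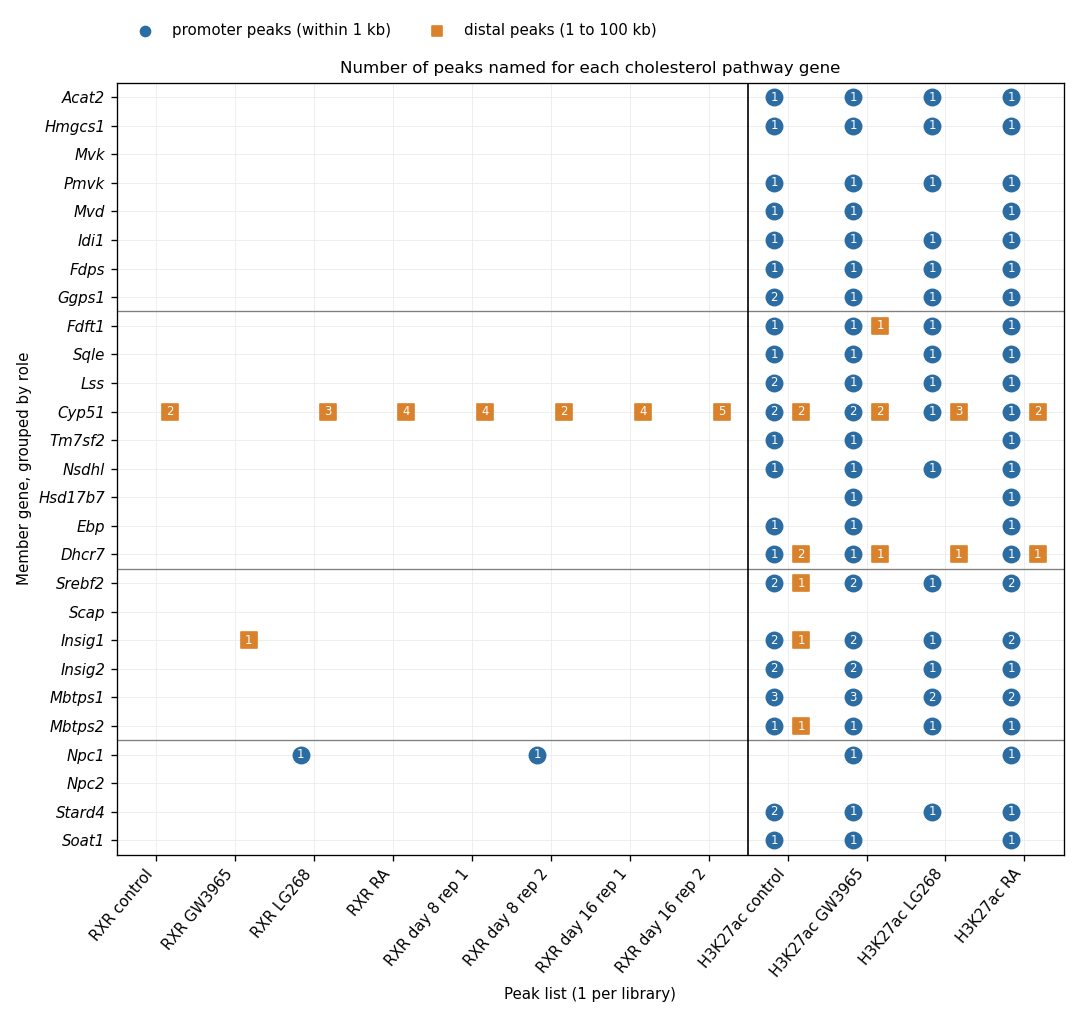
Number of peaks named for each of the 27 genes (rows, grouped from the top as mevalonate enzymes, sterol enzymes, SREBP regulators and transport and storage genes) in each of the 12 lists (columns). Circles count promoter peaks within 1 kb and squares distal peaks from 1 to 100 kb, so the RXR columns are nearly empty outside Cyp51 and the H3K27ac columns nearly full of promoter peaks.

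H3K27ac, which marks promoters and enhancers in use, was called at most promoters of the pathway. In the control 22 of the 24 genes had a promoter peak (91.7%, against 73.0% of all genes). All 24 had one with GW3965 (100%, against 66.5%) and with RA (100%, against 62.7%), and 17 had one with LG268 (70.8%, against 56.7%). The totals by role include Mvk, Scap and Npc2, which no list names and which therefore count as without a peak. By role, the control had promoter peaks at 7 of 8 mevalonate genes, 8 of 9 sterol genes, 5 of 6 regulators and 2 of 4 transport and storage genes. With LG268, the shortest of the 4 lists, these were 6 of 8, 5 of 9, 5 of 6 and 1 of 4. Counting any peak within 100 kb, the numbers were 22 (against 85.7% of all genes), 24 (78.0%), 18 (63.9%) and 24 (71.1%) in the control and with GW3965, LG268 and RA.

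A promoter peak in all 4 lists was found at 17 pathway genes, as it was at 7275 of all genes (50.2%). The 17 were the mevalonate genes Acat2, Hmgcs1, Pmvk, Idi1, Fdps and Ggps1, the sterol genes Fdft1, Sqle, Lss, Cyp51 and Nsdhl, the regulators Srebf2, Insig1, Insig2, Mbtps1 and Mbtps2, and Stard4, a sterol carrier gene. Every gene with a control promoter peak also had one with GW3965 (22 of 22, where 86.8% of all such genes did) and with RA (22 of 22, where 82.5% did). With LG268 it was 17 of 22 (77.3%, where 75.3% of all such genes did), which is near the background.

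The 5 genes with a promoter peak in the other 3 lists but none with LG268 were Dhcr7, Ebp, Mvd, Soat1 and Tm7sf2. Ebp, a sterol isomerase gene, had best promoter scores of 12.6, 5.79 and 5.21 in the control, GW3965 and RA lists (32.1%, 68.0% and 74.1% of the list). Soat1, which encodes the enzyme that esterifies cholesterol for storage, had 14.18, 11.37 and 9.46 (27.8%, 34.8% and 39.5%). Tm7sf2, a sterol reductase gene, had 4.68, 4.49 and 4.26 (78.9%, 81.4% and 85.4%). Soat1 stood in the upper part of each list in which it was called, and Tm7sf2 close to the bottom.

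Mvd, the mevalonate diphosphate decarboxylase gene, had scores of 6.61, 5.42 and 11.35 (60.2%, 71.2% and 30.3% of the list), and Dhcr7 9.5, 8.8 and 4.82 (43.7%, 46.0% and 78.3%). Hsd17b7 and Npc1 had a promoter peak only with GW3965 and RA. Those of Hsd17b7, a sterol reductase gene, had scores of 3.13 and 7.14 (96.0% and 55.0%). Those of Npc1 had scores of 10.14 and 3.16 (39.8% and 96.1%). For both genes 1 of these 2 peaks was among the lowest of its list.

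In some of these cases a peak lay within 1 kb but carried another gene's name. Mvd had an LG268 peak 523 bp upstream that was named for the neighbour 9330133O14Rik, with a score of 14.29 (16.3% of the list). A peak of that name also lay 455, 501 and 470 bp upstream in the control, GW3965 and RA lists. Its scores there were 23.61, 15.62 and 11.85 (12.2%, 22.8% and 28.4%). Hsd17b7 had a control peak 512 bp upstream, named for 3110045C21Rik (score 5.28). With GW3965 a peak of the same name lay 416 bp upstream (score 9.49, 42.7%). Dhcr7 had an LG268 peak 603 bp upstream of its TSS, named for Nadsyn1 (score 6.55). Mvk, the mevalonate kinase gene, which shares its upstream region with Mmab, had a peak 357 to 455 bp upstream in all 4 lists, each named for Mmab. The scores of that peak were 22.37 in the control, 7.38 with GW3965, 5.69 with LG268 and 8.95 with RA (13.7%, 54.9%, 65.7% and 42.3% of the list). Ebp, Soat1 and Tm7sf2 had no LG268 peak within 1 kb by position either.

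Counted by position against the TSSs of the RefSeq promoter table (build GRCm38.p6), which holds 22 of the 27 genes and not Npc1, a promoter peak lay at 20 pathway genes in the control, 20 with GW3965, 16 with LG268 and 20 with RA. The same count over the 27025 genes of that table was 38.2%, 35.0%, 30.2% and 33.1%, a wider background that includes genes named in no list. Scap and Npc2 had no promoter peak by position.

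The promoter peak with the highest score belonged to Idi1, the isopentenyl diphosphate isomerase gene, in each of the 4 lists. Its best score was 50.61 in the control, 35.87 with GW3965, 39.13 with LG268 and 24.07 with RA (1.21%, 3.13%, 0.553% and 5.38% of the list). Hmgcs1, which encodes the synthase that makes HMG-CoA, had 29.83, 25.73, 18.11 and 14.63 (6.82%, 8.65%, 9.46% and 19.1%). Cyp51 had 27.53, 19.25, 17.33 and 14.6 (8.60%, 15.8%, 10.5% and 19.2%). These 3 genes were the highest of the pathway in the control and stayed in the top 20% of every list.

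At the other end in the control were Fdps, the farnesyl diphosphate synthase gene, with a score of 4.44 (80.9% of the list), Tm7sf2 with 4.68 (78.9%) and Nsdhl, a sterol dehydrogenase gene, with 5.28 (73.4%). Fdps was also the lowest of the 17 shared genes with RA (3.76, 90.6%), but stood at 46.3% with GW3965 (score 8.77). Nsdhl was the lowest of the 17 with LG268 (2.40, 98.7%), and Stard4 with GW3965 (4.05, 87.2%).

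The genes with the most control peaks were Cyp51 with 4 and Dhcr7, Srebf2, Insig1 and Mbtps1 with 3 each. Srebf2 had promoter scores of 15.51, 6.94, 6.75 and 7.49 in the control, GW3965, LG268 and RA lists (24.7%, 58.1%, 54.9% and 52.4% of the list). Insig1 had 20.99, 15.72, 7.25 and 7.18 (15.4%, 22.6%, 50.4% and 54.7%). Insig2, its relative, had 8.45, 8.5, 13.71 and 16.08 (48.9%, 47.9%, 18.0% and 15.9%). The order of the Insig genes within a list was thus opposite in the control and in the LG268 and RA lists, with 1 library each and no test. The protease genes Mbtps1 (16.88, 11.32, 12.84 and 13) and Mbtps2 (15.43, 20.07, 14.64 and 13.37) lay between 14.6% and 35.1% of every list.

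For the 17 genes with a promoter peak in all 4 lists, the median place in the list was 24.9% in the control, 46.3% with GW3965, 32.7% with LG268 and 52.4% with RA. For the 7275 genes that all 4 lists share, it was 19.9%, 23.7%, 34.7% and 29.0%. The number of the 17 genes that ranked above the median of the 7275 was 5 in the control, 6 with GW3965, 9 with LG268 and 6 with RA. The median score of the 17 was 15.4, 8.77, 9.97 and 7.49 against 17.9, 15.2, 9.61 and 11.7 for all shared genes. At the median the pathway promoters thus ranked below the shared promoters of all genes in 3 of the 4 lists and slightly above them with LG268. Only peaks that carry a gene's own name were ranked, for the 17 and the 7275 alike. Ggps1, one of the 17, had higher peaks within 1 kb named for Arid4b in every list. Their best scores were 16.9, 24.42, 9.7 and 13.62 in the control, GW3965, LG268 and RA lists, against 11.3, 6.96, 4.57 and 8.74. Over the best promoter peak of every gene that had one in a list, shared or not, the medians were 34.2% against 28.9%, 47.1% against 31.9%, 32.7% against 38.4% and 53.6% against 35.7%.

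**Figure D4:**
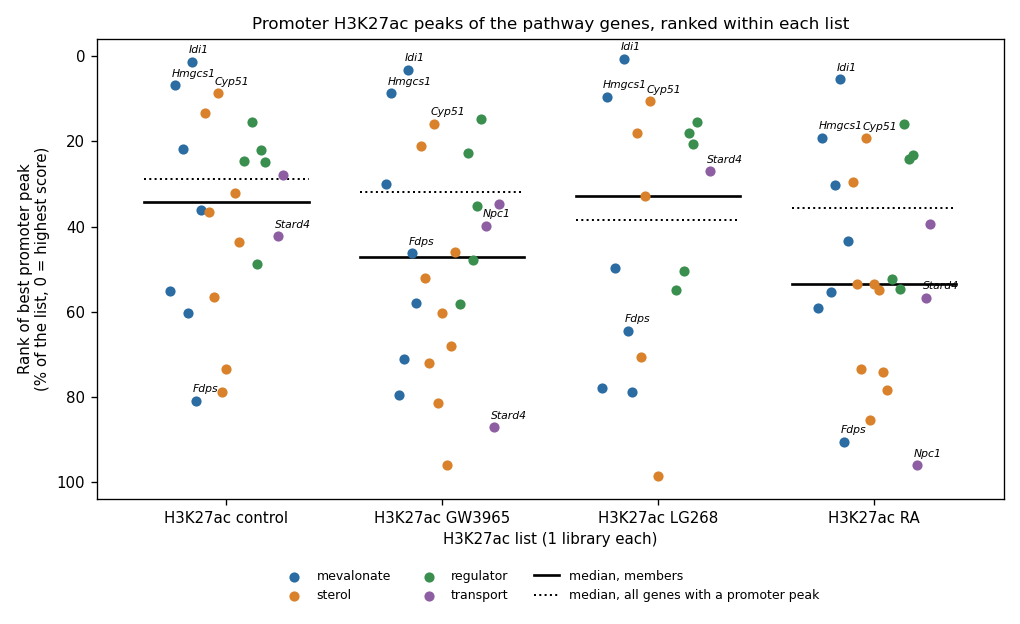
Place of each pathway gene's best promoter H3K27ac peak in its list, as rank in percent of the list length with the highest score at the top, for the control and the 3 ligands (1 library each). Points are genes coloured by role, solid lines are their medians and dotted lines the medians of all genes with a promoter peak. Idi1 is at the top of each column, and the solid line lies below the dotted one in every list but LG268.

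The bases upstream of 6 of these genes are shown because they include the 3 highest promoters in the control (Idi1, Hmgcs1 and Cyp51), both Insig1 and Srebf2 of the regulatory loop, and Hsd17b7, whose call varied between lists. Each is the 250 bases before the TSS in RefSeq (GRCm38.p6), on the strand of the gene, and none of it is transcribed from that TSS. Capitals mark matches to CCAAT, the core of the NF-Y site, on either strand (ATTGG on the other), and in Hmgcs1 also the match to TCACNCCAC, a form of the sterol regulatory element that SREBP binds.
Idi1: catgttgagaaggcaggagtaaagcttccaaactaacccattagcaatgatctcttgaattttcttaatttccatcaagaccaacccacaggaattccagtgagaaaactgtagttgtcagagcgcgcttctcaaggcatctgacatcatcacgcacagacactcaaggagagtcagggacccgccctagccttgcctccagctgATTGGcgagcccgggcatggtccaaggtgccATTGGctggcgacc
Hmgcs1: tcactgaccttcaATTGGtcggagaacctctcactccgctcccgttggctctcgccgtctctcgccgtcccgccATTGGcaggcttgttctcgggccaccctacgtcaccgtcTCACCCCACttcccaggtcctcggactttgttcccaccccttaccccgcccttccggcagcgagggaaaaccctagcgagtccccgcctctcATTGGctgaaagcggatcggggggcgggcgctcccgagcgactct
Cyp51: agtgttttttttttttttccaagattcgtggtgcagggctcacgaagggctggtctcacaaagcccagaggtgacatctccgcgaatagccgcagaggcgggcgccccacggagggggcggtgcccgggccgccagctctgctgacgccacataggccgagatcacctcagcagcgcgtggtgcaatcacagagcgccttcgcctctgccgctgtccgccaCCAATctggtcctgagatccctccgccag
Insig1: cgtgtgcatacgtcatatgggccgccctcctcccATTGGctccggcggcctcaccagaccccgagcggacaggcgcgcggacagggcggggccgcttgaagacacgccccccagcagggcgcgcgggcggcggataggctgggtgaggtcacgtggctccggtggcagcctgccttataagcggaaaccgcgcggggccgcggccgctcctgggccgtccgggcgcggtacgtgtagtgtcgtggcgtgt
Srebf2: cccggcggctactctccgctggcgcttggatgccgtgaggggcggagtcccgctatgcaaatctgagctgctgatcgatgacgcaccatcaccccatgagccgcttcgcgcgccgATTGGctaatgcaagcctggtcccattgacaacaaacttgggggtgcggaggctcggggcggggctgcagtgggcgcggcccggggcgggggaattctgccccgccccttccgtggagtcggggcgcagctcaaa
Hsd17b7: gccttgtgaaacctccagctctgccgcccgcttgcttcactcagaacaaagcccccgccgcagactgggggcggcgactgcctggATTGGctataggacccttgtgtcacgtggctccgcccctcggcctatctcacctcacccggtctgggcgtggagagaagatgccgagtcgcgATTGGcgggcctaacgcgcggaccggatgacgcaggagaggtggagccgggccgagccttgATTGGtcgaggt

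Hmgcs1, on chromosome 13 (119690101 to 119690350, plus strand), had the sterol element at bases -137 to -129 from the TSS and 3 CCAAT matches. Idi1, also on chromosome 13 (8885356 to 8885605, plus strand), had 2 CCAAT matches, and Hsd17b7 on chromosome 1 (169969206 to 169969455, minus strand) had 3. Cyp51 (chromosome 5, 4104698 to 4104947, minus strand), Srebf2 (chromosome 15, 82147019 to 82147268, plus strand) and Insig1 (chromosome 5, 28071162 to 28071411, plus strand) had 1 each.

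Of the 22 pathway genes in the promoter table, 18 held a CCAAT match in this window at any of their TSSs, where 37.5% of the 27025 genes of the table did (33.8% of its 32851 promoters). For Pmvk, Insig2 and Dhcr7 the matches lay only at a TSS 4577, 4565 and 7047 bp from one that the deposited distances imply. The background was not limited to acetylated promoters. TCACNCCAC was found at 1 of the 22, Hmgcs1 (1.22% of genes, 1.05% of promoters). AGGTCA, the half-site of RXR and its partners, was found at 3 of the 22, Hmgcs1, Dhcr7 and Insig1 (15.8% of genes, 14% of promoters). CACGTG, an E-box, was found at 4 of the 22, Hsd17b7, Dhcr7, Scap and Insig1 (6.86% of genes, 6.02% of promoters). All motifs were searched on both strands. In Insig1 the AGGTCA match (-105 to -100) and the CACGTG match (-101 to -96) overlap. Npc1, Stard4, Fdps, Fdft1 and Sqle were not matched in that table. A match describes the letters only, and none of the 22 genes searched had a promoter RXR peak under its own name.

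Distal H3K27ac peaks were fewer. By name, a distal peak was called at 5 pathway genes in the control (20.8%, against 28.6% of all genes), 3 with GW3965 (12.5% against 22.9%), 2 with LG268 (8.33% against 12.9%) and 2 with RA (8.33% against 16.3%). Counted by position against the RefSeq TSSs, the pathway share was above that of all genes of the promoter table in every H3K27ac list. That wider set includes genes named in no list, so the backgrounds by name and by position are unlike. Their change of side was not tested. The pathway share by position was 86.4% of 22 genes in the control (against 73.9% of 27025), and 81.8% with GW3965 (70.0%). With LG268 it was 77.3% (61.4%) and with RA 77.3% (65.4%). By name, Cyp51, in the region described above, and Dhcr7 had a distal peak in every list. The Dhcr7 peak lay in intron 1, with scores of 16.58, 12.46, 12.78 and 8.87 in the control, GW3965, LG268 and RA lists (22.5%, 31.2%, 20.7% and 42.7% of the list). It was 6661 bp downstream of the TSS in the control (chromosome 7, 143829659 to 143829997), and 386 bp upstream of another RefSeq TSS of Dhcr7 at 143830214.

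Distal peaks at 3 regulators were called in the control alone. The Srebf2 peak lay 1193 bp upstream of the TSS (chromosome 15, 82145889 to 82146263, score 3.81, 89.2% of the list). The Insig1 peak lay 16291 bp upstream (chromosome 5, 28054948 to 28055295, score 6.47, 61.2%). The Mbtps2 peak lay in intron 3 of 10, 10047 bp downstream (chromosome X, 157588548 to 157588789, score 4.66, 79.1%). All 3 stood in the lower part of the control list, and the ligand lists were shorter. Thus 2 of the 5 genes with a distal control peak also had one with each ligand, where 61.5%, 38.2% and 46.1% of all such genes did with GW3965, LG268 and RA. Fdft1, the squalene synthase gene, had a distal peak with GW3965 alone, 13115 bp downstream of the TSS (chromosome 14, 63164517 to 63164839, score 9.68).

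RXR sites near pathway genes may carry a neighbour's name, and counting by position raised the RXR counts. With the TSSs of the RefSeq table, an RXR peak lay within 100 kb of 3 of the 22 genes in the control (13.6%, against 13.3% of the 27025 genes), 3 with GW3965 (13.6% against 10.7%), 6 with LG268 (27.3% against 22.3%) and 4 with RA (18.2% against 21.1%). On day 8 it was 4 (18.2% against 9.49%) and 5 (22.7% against 18.2%), and on day 16 it was 4 (18.2% against 3.43%) and 3 (13.6% against 2.87%). The background by position is itself wider, because 1 peak counts for every gene within reach. This count was added after the values were seen.

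By position, sites near Cyp51, Hmgcs1 and Scap had a peak in at least 6 of the 8 RXR lists. A site 91207 to 91288 bp upstream of Hmgcs1, named for Ccl28 (chromosome 13, 119598923 to 119599243 over the lists), had a peak in every RXR list but GW3965. Its scores were 5.26 in the control, 8.91 with LG268, 10.01 with RA, 26.37 and 35.33 on day 8 and 29.29 and 26.16 on day 16. A site 51965 to 52013 bp upstream of Scap, on chromosome 9 (110281265 to 110281363 in day 16 replicate 1), had scores of 6.98 with LG268, 9.95 with RA, 18.93 and 22.71 on day 8 and 40.43 and 11.21 on day 16. It was named for Elp6. Closer to its gene was a site named for Rusc1, 14260 to 14292 bp downstream of the Fdps TSS that the deposited distances imply, with scores of 7.39 in the control, 8.45 with LG268, 14.44 with RA and 12.75 in day 8 replicate 2. Fdps is not in the RefSeq table and is outside the counts by position above. Near Ggps1 a site named for B3galnt2 had a peak with RA, in day 8 replicate 1 and in day 16 replicate 1. At day 16 Cyp51, Hmgcs1 and Scap accounted for 3 of the genes counted in each replicate, and Ggps1 was added in replicate 1 (score 23.95, rank 164 of 429). Which gene a distal site acts on cannot be read from its position.

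Other genes of lipid metabolism were counted in the same way, from lists set beside the pathway. Among other genes of sterol and isoprenoid synthesis, Pdss1 and Por had an RXR peak within 100 kb in at least 1 list. Among genes of fatty acid synthesis that SREBP1 governs, 10 of 14 did (71.4%), Acaca, Elovl5, Elovl6, Fads1, Fads2, Fasn, Gpam, Scd1, Scd2 and Srebf1. Among sterol efflux and LXR genes, 3 of 4 did, Abca1, Abcg1 and Mylip. Against these counts the 24 pathway genes had 3 and all genes 22.0%. Several of these genes are textbook LXR targets, so the counts describe them and no test of the lists was made.

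Por, the reductase that passes electrons to Cyp51 and other cytochrome P450 enzymes, had a promoter RXR peak in the control (score 10.66), with LG268 (10.05), with RA (16.79) and in both day 8 lists (17.94 and 59.02), and none with GW3965 or on day 16. Pdss1, which builds the side chain of ubiquinone from the same isoprenoid precursors, had one with LG268 (5.80) and RA (5.23). Srebf1, the gene of the sister factor of SREBP2, had an RXR peak in all 8 lists, 9930 to 9997 bp from its TSS, at 1.93% of the control list. Srebf2 had none.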

How the data were processed

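The deposited files are 12 lists of ChIP-seq peaks, 1 per library, 8 for RXR and 4 for H3K27ac. The submitters' processing notes name BWA 0.6.0, MACS2 2.0.10 and HOMER 4.2, and 2 genome builds, mm9 and mm10, whose use they do not state. Positions are in mm10, per the file headers. The score of each peak, its distance to the TSS, its nearest gene and its location class are the authors' deposited values. The scale of the score between libraries is not given in the sources used here, so scores were ranked within a list, with tied peaks sharing the best rank. The lists give no counts of reads, so depth is unknown and the precision of a count of genes with a peak cannot be set from it. Of all peaks, 40 carried no gene name and were not counted for any gene.

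A gene counted in a list if a peak carried its name within 100 kb of the TSS, as a promoter peak within 1 kb and a distal peak beyond. Overlap meant at least 1 shared bp. RXR peaks were merged to regions within 1 kb. The members, lists and rules were chosen with earlier results of these data known. Genes were named by rule. They are every member with an RXR peak, the members whose promoter call differs between the H3K27ac lists, the 5 with the most control peaks, and the 3 highest and 3 lowest by control promoter score. Shares are set beside those of all 14490 named genes, without a test of the list. Day 8 and day 16 were compared by an exact permutation test over 4 libraries. Promoter sequences are from RefSeq (GRCm38.p6), 22 members matched. The counting was tested on simulated data. The alternatives were windows of 10 kb, promoters within 5 kb, the upper 50% of each list by score and repeats left out. Lists were also cut to the length of the shortest ES list of the antibody. Other alternatives were 50% reciprocal overlap, position in place of name, another background, replicates left out and a replicate block. The tools were pandas 2.3.3, numpy 2.4.6, scipy 1.17.1 and matplotlib 3.10.9 under Python 3.11.15. The sequences of the RXR peaks were not analysed here. Some genes of the marker and neighbouring pathway lists are not reported here.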

Additional observations from a re-analysis of the deposited data

How the results depend on the processing

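Of 265 values recomputed under another setting, 177 stayed within 1.5 times the reported count (the day difference within its replicate SD) and 88 moved. Only the day difference could reverse in sign, and it did not. For the counts, a change of side against the background was not scored. Nothing moved when repeat peaks were left out or when promoters reached to 5 kb. Within 10 kb of the TSS the RXR count fell to 0 genes in 6 lists and to 1 (Npc1) with LG268 and in day 8 replicate 2, the distal RXR count to 0 in all 8, and the distal H3K27ac count to 2 in the control and 1 with each ligand, since most distal peaks lie farther away. Among the upper 50% of each list by score, RXR counts were 0 in the control and with RA, any or distal, and 1 with LG268, with 0 at promoters. H3K27ac counts there, any and promoter, were 13 and 13 with GW3965, 11 and 10 with LG268 and 11 and 10 with RA, and distal counts were 2, 1 and 1 in the control, LG268 and RA lists. Lists were also cut to the length of the shortest ES list of the antibody (940 RXR and 12472 H3K27ac peaks), keeping the first peaks in deposited order. The day 16 lists, with 429 and 409 peaks, were shorter and stayed whole. With this cut RXR counts were 1 with LG268 and 0 at promoters, and 0 with RA, any or distal. Distal H3K27ac counts were 2 in the control and 1 with RA. With genes that have a control H3K27ac peak as the background, the RXR count was 1 with LG268 and in day 8 replicate 2, and 0 at promoters, since Npc1 has no such peak. With 50% reciprocal overlap, 0 of the RA RXR peaks at pathway genes overlapped H3K27ac.

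By position, peaks of neighbours count as well. Against the TSS that the deposited distances imply, RXR counts were 3 in the control, 2 with GW3965, 7 with LG268, 5 with RA, 3 and 7 on day 8 and 3 and 2 on day 16. Distal RXR counts were 3, 2, 6, 5, 3, 6, 3 and 2 in that order, and distal H3K27ac counts 20, 19, 19 and 17. Against the RefSeq TSSs, RXR counts, any and distal alike, were 3, 3, 6, 4, 4, 5, 4 and 3, promoter RXR counts 0 with LG268 and in day 8 replicate 2 because that table lacks Npc1, and distal H3K27ac counts 19, 18, 17 and 17.

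Day 8 minus day 16 was 0.5 genes, and 0 to 1 with each replicate left out in turn. With the replicate number as a block, the mean difference over 2 pairs was 0.5 (exact sign-flip test, p = 1.00). In replicate 1 the counts of the 2 days were equal, so every flip of sign gives the same absolute mean. The p of 0.5 that 2 pairs can allow was thus out of reach, and the test decides nothing. The labels do not say that the numbers pair the samples. Limits common to all counts are the single library of each ES condition, the unknown depth, and the naming of each peak for 1 gene.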
